A study of Saccharomyces cerevisiae with 41 samples.

Results

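Box H/ACA small nucleolar RNAs (snoRNAs) were followed in RNA sequencing of budding yeast (Saccharomyces cerevisiae) with mutations in the nuclear RNA exosome, in ribosome assembly or in nuclear transport. The members were the rows that bear the name of one of 29 box H/ACA snoRNAs, and all 29 were found among the 11587 rows of each of 3 count tables. At least 1 count was recorded for 28 of the 29 in oligo d(T)-selected RNA, for all 29 in RNA depleted of ribosomal RNA, and for 27 in 3′ tags, which are single reads primed from the 3′ end of polyadenylated RNA. The rows were 161 to 1004 bases long with a median of 204, and all 29 had the same coordinates as the RefSeq annotation of genome build R64.

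Box H/ACA snoRNAs fold into hairpins and carry the sequence ACA close to the mature 3′ end. Each works in a particle with the pseudouridine synthase Cbf5 and the proteins Nhp2, Gar1 and Nop10, and guides the conversion of chosen uridines to pseudouridine in ribosomal RNA. Most yeast members are transcribed from their own promoters, terminated by the Nrd1, Nab3 and Sen1 complex, given a short poly(A) tail by the TRAMP complex and trimmed to the mature end by the nuclear exosome and its nuclease Rrp6. Mature snoRNAs carry no poly(A) tail.

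Cells grew at 25 °C and were held at 37 °C for 90 min. The strains were a control, csl4-ph, dis3-1 and rrp6 deletion (exosome subunits), enp1-1 (a factor for making the small ribosomal subunit) and srm1-ts (the exchange factor of the Ran GTPase of nuclear transport), and the labels give BY4741 as the genetic background of all of them. Oligo d(T) selection was applied to powdered frozen cells of control (n = 3), csl4-ph (n = 3), enp1-1 (n = 2) and srm1-ts (n = 2), and ribosomal RNA depletion to control (n = 2), csl4-ph (n = 3) and enp1-1, srm1-ts, dis3-1 and rrp6 deletion (n = 2 each). The 3′ tags came from pelleted cells of control, csl4-ph and enp1-1 with either an empty or a Pab1GFP vector (n = 3 in each of the 6 groups).

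Libraries held 15589670 to 33251600 estimated counts in oligo d(T) RNA, 12795066 to 32142495 in ribo-depleted RNA and 1458382 to 3027707 in 3′ tags. Rows of ribosomal RNA and of TAR1, a gene within it, took 57.4 to 78.4% of the tag counts. The labels do not say whether replicates were separate cultures, so p-values measure the spread between these libraries, which may be technical. The libraries did not share a mating type or the same markers: LYS2 was at 0 CPM (counts scaled to a common library size) in control and csl4-ph oligo d(T) RNA and at 456 ± 4.51 CPM (SD, n = 2) in enp1-1, and the alpha-specific receptor gene STE3 was at 392 ± 4.78 CPM (n = 3) in control and 1.86 ± 0.219 in enp1-1. Mutation and strain background therefore cannot be told apart. RRP6 was at 185 ± 7.06 CPM in ribo-depleted control and 39.04 ± 1.27 in rrp6 deletion (n = 2 each). One csl4-ph library, replicate 1 of the ribo-depleted group by title and by table, has a protocol text for poly(A) selection, and the counts of called members on that group were repeated without it.

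Of the 29 members, 26 overlapped another row of the tables, so that reads could be split between rows. For 24 of them this was a NUT (Nrd1-unterminated transcript, an RNA that runs on when Nrd1 is lost) that ran past the snoRNA 3′ end by 216 to 4081 bases (median 1102). This is by coordinates only: the row names give no strand, so a NUT may lie on the strand opposite its snoRNA. An open reading frame overlapped snR10, snR44 and snR191: snR44 lies in an intron of RPS22B and snR191 in an intron of NOG2. Only snR49, snR85 and snR189 overlapped no other row, so their values stand alone and their sequences are shown here. They are read 5′ to 3′ on the transcribed strand from the R64 genome of RefSeq, with the ACA nearest the 3′ end in capitals where it lies in the last 10 bases: snR49 is at chrXIV:716120-716284 (plus strand), snR85 at chrXIII:67768-67938 (minus) and snR189 at chrIII:178610-178798 (minus).
snR49: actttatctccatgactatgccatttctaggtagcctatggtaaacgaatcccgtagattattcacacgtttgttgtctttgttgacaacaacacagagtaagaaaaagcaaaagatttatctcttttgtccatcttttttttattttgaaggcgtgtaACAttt
snR85: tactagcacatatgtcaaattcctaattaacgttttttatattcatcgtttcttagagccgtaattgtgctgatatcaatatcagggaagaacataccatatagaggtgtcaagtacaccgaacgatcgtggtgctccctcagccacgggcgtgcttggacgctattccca
snR189: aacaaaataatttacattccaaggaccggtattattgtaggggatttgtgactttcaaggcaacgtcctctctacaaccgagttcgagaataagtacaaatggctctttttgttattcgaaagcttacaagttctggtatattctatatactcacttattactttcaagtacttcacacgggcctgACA
The annotated end of snR85 has no ACA in its last 10 bases. An ACA lay in the last 10 bases of 18 of the 29 members and in 7 of 47 box C/D snoRNAs, the other large snoRNA class, and exactly 3 bases from the end in 14 and 3. In the 200 bases after the 3′ end on the same strand, GTAA or GTAG, the letters of Nrd1 sites, occurred in 89.7% of the members, 70.2% of box C/D snoRNAs and 77.4% of open reading frames. TCTT, the letters of Nab3 sites, occurred in 100% of the members, 93.6% of box C/D snoRNAs and 77.5% of open reading frames. These are matches of letters and not binding sites.

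In ribo-depleted control RNA, which counts RNA with and without a tail, the members took 1.76 ± 0.0707% (SD, n = 2) of all counts. Per kilobase the highest level was that of snR30, which takes part in cleavage of the 18S rRNA precursor and guides no known pseudouridine, at 17940 CPM per kb. It was followed by the 25S guide snR37 at 7993, the 18S guide snR83 at 6384 and the long 25S guide snR86 at 3102 CPM per kb. The lowest were snR81, a guide for both 25S rRNA and the U2 spliceosomal RNA, at 42.2 and the 18S guide snR36 at 18.5 CPM per kb. The snR36 row held 1.98% of the sum of that row and its overlapping NUT row. Its place may therefore depend on how reads were split between the rows. The neighbours snR43 and snR3, at 604 and 603 CPM per kb, could not be ranked: their spreads overlapped.

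In oligo d(T)-selected RNA the members made up 0.0098 ± 0.0004% of counts in control (n = 3) and 0.429 ± 0.0243% in csl4-ph (n = 3). All 24 members that could be tested were called higher in csl4-ph (edgeR quasi-likelihood test, Benjamini-Hochberg adjusted p under 0.05). Of all 10464 tested features, 38.2% were called higher and 39.6% lower. Among the 24 members, 6 had no count in any control library, and 3 of the 6 (snR30, snR36 and snR43) had counts in csl4-ph only and passed the low-count filter through it. The 15 members with counts in each control library are the fairer set: all 15 rose, by 1.57 to 4.17 on the log2 scale with a median of 3.12, where the median of all features was 0.

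The 3 members without an overlapping row show the rise most plainly. The snR189 libraries, a guide for both 18S and 25S rRNA, read 7.99, 5.89 and 5.54 CPM in control and 121, 112 and 120 in csl4-ph, a log2 fold change of 4.17 ± 0.123 (SE; adjusted p = 1.08e-08). The snR49 libraries, another guide for both rRNAs, read 10.3, 10.4 and 9.68 CPM in control and 123, 74.8 and 73.7 in csl4-ph (3.16 ± 0.21, adjusted p = 1.66e-06). The 18S guide snR85 read 4.47, 4.48 and 5.46 CPM in control and 31.3, 33.1 and 33.7 in csl4-ph (2.77 ± 0.108, adjusted p = 5.73e-08). In each of the 3 the lowest csl4-ph library was above the highest control library.

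Of the members that also act outside guiding, snR10, which guides 25S rRNA and takes part in pre-rRNA cleavage, read 23.8, 22.4 and 24.2 CPM in control and 242, 292 and 275 in csl4-ph (3.52 ± 0.0893, adjusted p = 4.8e-09). The 18S guide snR35, whose target base is further modified, read 6.84, 5.62 and 5.41 CPM in control and 37.7, 40.6 and 39.8 in csl4-ph (2.72 ± 0.243). The U2 and 25S guide snR81 read 2.01, 1.29 and 2.15 CPM in control and 14.6, 17.6 and 16.6 in csl4-ph (3.16 ± 0.231). The smallest rises were those of 3 guides for 25S rRNA. The snR3 libraries read 7.44, 7.44 and 6.60 CPM in control and 19.01, 22.1 and 23.1 in csl4-ph (1.57 ± 0.298). Those of snR9 read 10.4, 8.06 and 8.74 against 29.8, 30.7 and 34.9 (1.81 ± 0.115), and those of snR8 read 11.5, 10 and 14.9 against 47.1, 53.4 and 54.4 (2.09 ± 0.145).

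**Figure D1:**
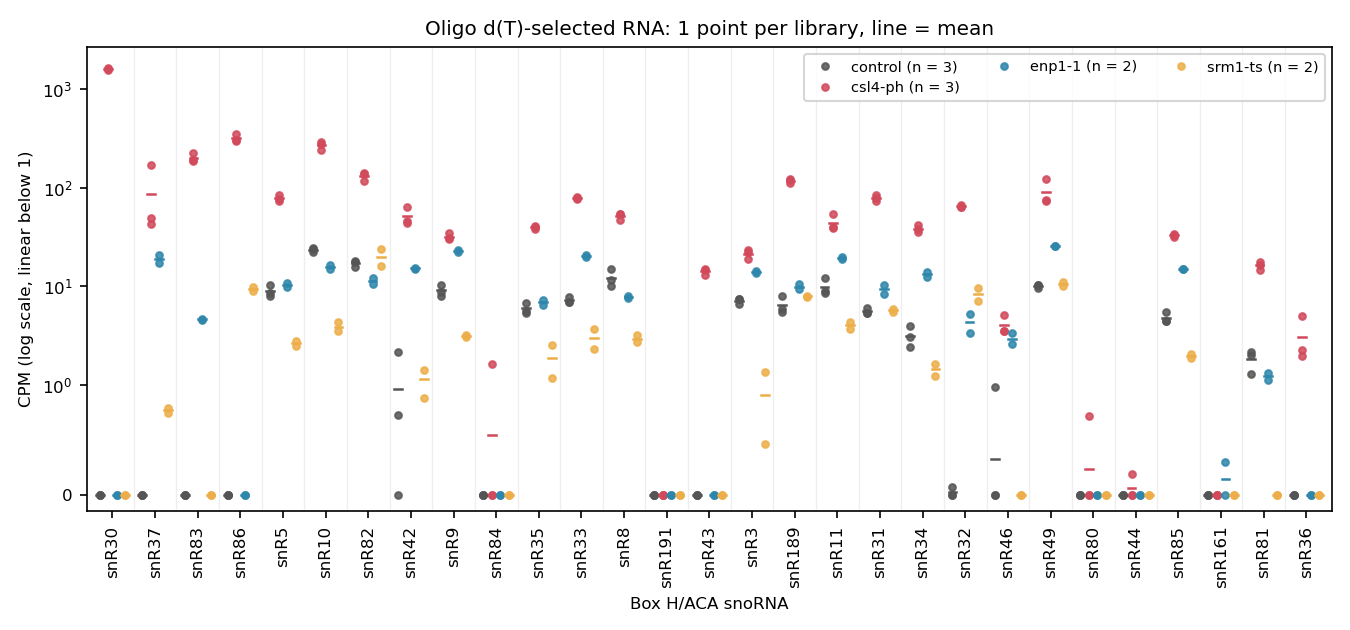
CPM of each of the 29 members in the oligo d(T)-selected libraries (log axis, linear below 1; members ordered by level per kb in ribo-depleted control), 1 point per library with the group mean as a line. The csl4-ph points of the overlap-free snR49, snR85 and snR189 lie above their control points, and control is at 0 for snR30, snR37, snR83 and snR86.

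For snR30, snR86, snR83, snR37, snR43 and snR36 the control libraries were listed at 0. The largest csl4-ph level was that of snR30, at 1613, 1544 and 1602 CPM, at least 6490-fold above the limit that 3 counts per control library allow. The corresponding bounds were at least 1290-fold for snR86, at 349, 300 and 296 CPM in csl4-ph, and at least 818-fold for snR83, at 222, 191 and 187 CPM. In the 3′ tags snR86 was not at 0 in control: with the empty vector it read 1606, 1468 and 1415 CPM. Why these kinds of library differ was not tested. These bounds hold for the counts given to the snoRNA row only, because the overlapping NUT rows were not at 0 in control. The NUT over snR30 read 128, 117 and 118 CPM in control and 2844, 2959 and 2952 in csl4-ph (4.60 ± 0.0416, adjusted p = 1.57e-10). Summed over snoRNA and NUT, the snR30 locus rose by 5.22 in csl4-ph and the snR86 locus by 2.83, and the snR83 locus by 0.93. Over 27 tested loci, each summed with all overlapping rows other than open reading frames, 24 rose and 1 fell, with a median of 2.00. These include the overlap-free snR49, snR85 and snR189, which have nothing to sum. In the fit of single rows 38.2% of all features were called higher and 39.6% lower.

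The remaining 5 members, snR44, snR80, snR84, snR161 and snR191, were too low to test in oligo d(T) RNA. Their highest libraries were 0.188 CPM for snR44, 0.712 for snR80 and 1.62 for snR84, all in csl4-ph, and 0.294 for snR161 in enp1-1. The intron-encoded snR191 was at 0 in all 10 libraries. A count of 0 allows up to 0.0847 to 0.264 CPM per library, and each of these 4 values came from a single library with counts.

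In enp1-1 the oligo d(T) signal also changed, by less. Of the 24 tested members 13 were called higher and 3 lower, with 37.8% and 38.6% of all tested features called in those directions, and 4 members were at 0 in both groups. Among the 15 members counted in each control library, 9 rose and 3 fell, with a median of 0.76. The overlap-free members all rose: snR85 read 14.8 CPM in both enp1-1 libraries (1.63 ± 0.113), snR49 read 25.5 and 25.6 CPM (1.34 ± 0.222), and snR189 read 10.4 and 9.33 CPM (0.60 ± 0.134, adjusted p = 0.00344).

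The 3 members called lower in enp1-1 were 25S guides, and only the snR10 call held when scaled on open reading frames (adjusted p = 0.0767 for snR8 and 0.138 for snR82). The snR8 libraries read 7.94 and 7.67 CPM against 11.5, 10 and 14.9 in control (−0.63 ± 0.162), snR82 read 12.0 and 10.6 against 15.7 to 17.99 (−0.60 ± 0.174, a call also lost without control replicate 1 or 3 or enp1-1 replicate 2), and snR10 read 16.4 and 14.9 against 22.4 to 24.2 (−0.58 ± 0.108). With the NUT rows added, the 3 loci did not fall: their changes were 0.70, 1.63 and 0.05. The largest enp1-1 rises, of snR37 (at least 77.8-fold), snR83 (at least 18.8-fold) and snR32 (7.06 ± 0.531), had control libraries at or next to 0. In enp1-1 snR37 read 17.3 and 20.7 CPM, snR83 4.54 and 4.67, and snR32 5.28 and 3.38. The snR32 and snR83 loci with their NUT rows changed by −0.69 and −0.84.

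Set directly against enp1-1, csl4-ph was higher in 22 of the 24 tested members and lower in none in oligo d(T) RNA, with 26.6% of all features called higher and 26.7% lower. Of the 24, 4 were at 0 in enp1-1, and among the 20 counted in each enp1-1 library 18 were higher and 0 lower. The exceptions were snR3 (0.61 ± 0.325, adjusted p = 0.153) and snR46 (0.45 ± 1.25, adjusted p = 0.808). DESeq2 also called 22 higher and 0 lower.

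In srm1-ts the oligo d(T) signal was lower for most called members. Of the 24 tested, 12 were called lower and 2 higher, where 37.7% and 39.3% of all features were called. The largest fall among members with counts in control was that of snR81, which read 0 in both srm1-ts libraries against 1.29 to 2.15 CPM in control, at least 17.7-fold lower. Summed with its overlapping rows, the snR81 locus rose instead, by 0.50 on the log2 scale. The snR3 libraries read 0.462 and 1.35 CPM (−2.99 ± 0.383) and those of snR46 were at 0 against 0.982, 0 and 0 in control, a call that rested on control replicate 1 (without it the snR46 change was 0) and was also lost without either srm1-ts library. The 2 members called higher were snR86, at 9.04 and 9.85 CPM against 0 in control, and snR32, at 7.05 and 9.55 CPM against 0.0675, 0 and 0. Summed with their NUT rows, both loci fell, by 2.06 and 1.08. The overlap-free snR85 fell (−1.28 ± 0.124), while snR49 (0.05 ± 0.233) and snR189 (0.28 ± 0.138) did not pass the test.

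Ribo-depleted RNA gave a different picture in csl4-ph. Of the 29 members 20 were called lower and 7 higher, where 41.1% and 35.4% of all 10564 tested features were called, and the members' median was −0.73 against −0.03 for all features. Without csl4-ph replicate 1, whose labels disagree, 20 were again lower and 7 higher. Scaling on open reading frames moved the median of all features to 0.41 and that of the members to −0.24. On that scale 14 members were lower and 8 higher, where 2927 and 5189 of 10564 features were called. This scaling turned the sign of 3 called members, snR31, snR82 and snR189.

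In csl4-ph ribo-depleted RNA the abundant cleavage factor snR30 read 9968 and 11770 CPM in control and 7106, 6381 and 6125 in csl4-ph (−0.73 ± 0.0861, adjusted p = 3.19e-05). The 18S guide snR83 read 2027 and 1880 CPM in control and 540, 486 and 439 in csl4-ph (−2.0 ± 0.0825), and the 25S guide snR37 fell from 3418 and 2753 to 304, 390 and 277 CPM (−3.25 ± 0.232). The groups did not overlap in any of the 3.

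The largest csl4-ph falls were those of snR80, snR44 and snR36, which were at a low level in control. The abundant snR37, given above, came next. The 18S and 25S guide snR80 read 43.4 and 27.3 CPM in control and 0 in the 3 csl4-ph libraries, at least 232-fold lower, but its locus with the NUT row changed by −0.20 (adjusted p = 0.0785). The 18S guide snR36 read 4.04 and 2.70 CPM in control and 0, 0.749 and 0.208 in csl4-ph (−3.40 ± 1.04). By edgeR's test the snR36 call was lost with only the compared groups (adjusted p = 0.0631) and with a replicate block (adjusted p = 0.0798). It was also lost without csl4-ph replicate 3 (adjusted p = 0.0582). The intron-encoded snR44 read 15.8 and 16.9 CPM in control and 0, 0.250 and 0.184 in csl4-ph (−6.67 ± 0.683), and its host gene RPS22B changed by −0.51 ± 0.0266. The other intron-encoded member, snR191, fell (−1.67 ± 0.122) while its host NOG2 rose (1.52 ± 0.0313). The largest rise was that of the overlap-free snR85, from 13.3 and 12.5 CPM to 43.8, 41.8 and 39.7 (1.69 ± 0.0807, adjusted p = 3.98e-08), followed by snR81 (0.91 ± 0.235) and snR8 (0.59 ± 0.131). The overlap-free snR189 read 97.2 and 109 CPM in control and 87.3, 78.8 and 78.7 in csl4-ph (−0.33 ± 0.0739, 0.16 when scaled on open reading frames), and snR49 did not pass the test (−0.20 ± 0.197).

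In dis3-1, which carries a mutation in the catalytic exosome subunit, 16 members were called lower and 4 higher, with 38.8% and 30.0% of all features called, and the members' median was −0.47 against −0.07. Scaled on open reading frames these counts were 11 and 6, where 2444 and 4730 of 10564 features were called. The median was then −0.05 against 0.27 for all features, and the signs of 2 called members, snR35 and snR189, turned. The rises were those of snR49, from 49.3 and 41.9 CPM to 112 and 123 (1.37 ± 0.208), snR85, to 31.8 and 32.1 CPM (1.30 ± 0.0867), snR32 (0.47 ± 0.0993) and snR3 (0.34 ± 0.107). The largest falls were those of snR44, to 0.667 and 0.913 CPM (−4.39 ± 0.704), snR43, from 122 and 130 to 47.4 and 42.8 CPM (−1.49 ± 0.12), and snR191, from 168 and 175 to 71.3 and 68.4 CPM (−1.29 ± 0.137).

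In rrp6 deletion more members rose than fell: 11 were called higher and 6 lower, where 30.5% and 35.6% of all features were called, and the members' median was 0.21 against −0.01. Scaled on open reading frames, 19 were higher and 4 lower, where 4577 and 2471 of 10564 features were called. The median was then 0.52 against 0.22. The overlap-free members rose together. The snR85 libraries read 116 and 101 CPM against 13.3 and 12.5 in control (3.07 ± 0.0858, adjusted p = 3.12e-09), those of snR49 read 132 and 159 against 49.3 and 41.9 (1.67 ± 0.208), and those of snR189 read 167 and 157 against 97.2 and 109 (0.65 ± 0.0793).

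The falls in rrp6 deletion included 2 of the 3 longest members, snR86 of 1004 and snR84 of 550 bases. The long 25S guide snR86 read 672 and 640 CPM against 2980 and 3250 in control (−2.25 ± 0.0495, adjusted p = 7.92e-10), and the 25S guide snR84 read 252 and 278 against 694 and 688 (−1.38 ± 0.0541). Another fall was that of the intron-encoded snR44, at 3.18 and 4.39 against 15.8 and 16.9 CPM (−2.11 ± 0.62), a call that was lost without rrp6 deletion replicate 1 (adjusted p = 0.0749). The snR36 libraries read 11.8 and 16.8 CPM, a change that did not pass the test (2.08 ± 1.08, adjusted p = 0.131). In snR30 (−0.16 ± 0.0955) and snR35 (0.03 ± 0.102) no change was called.

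**Figure D2:**
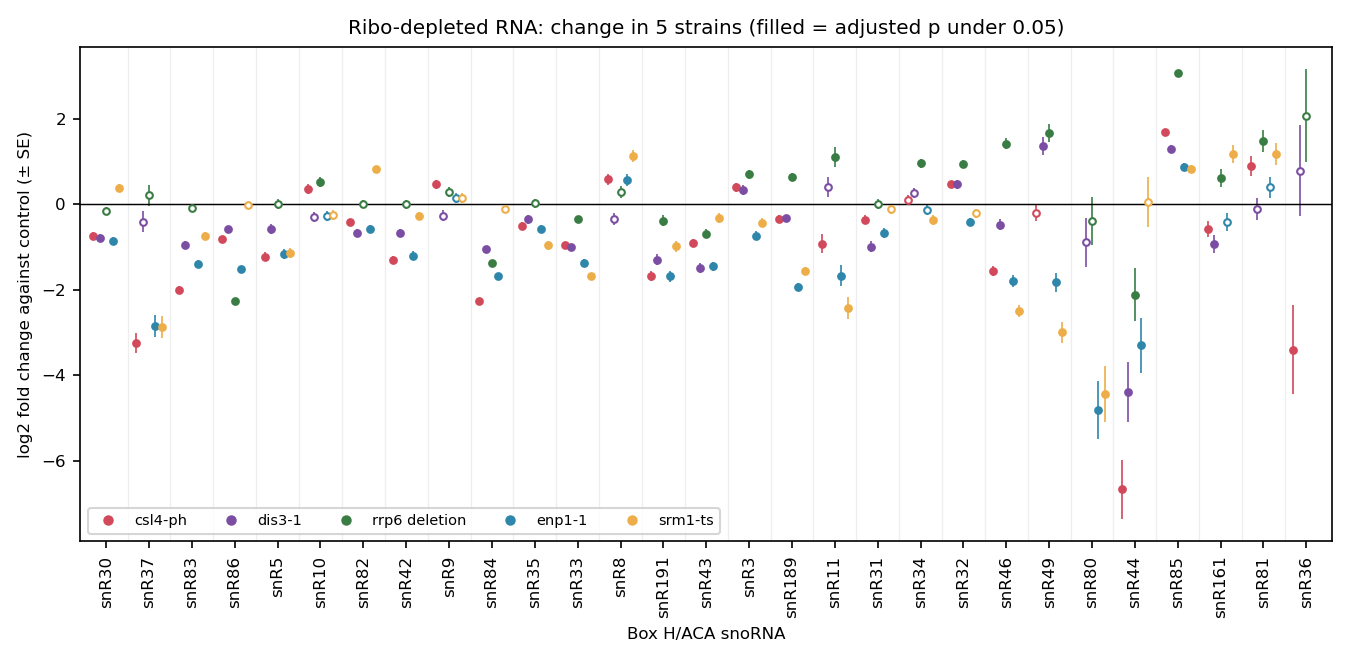
Log2 fold change against control (± SE) of each member in 5 strains in ribo-depleted RNA, filled where the adjusted p was under 0.05; a strain is left out for a member with a group at 0. The green points of rrp6 deletion lie above the red points of csl4-ph for most members, with snR86 as an exception at −2.25 against −0.80.

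Compared directly, dis3-1 was lower than rrp6 deletion in 23 of 29 members and higher in 2, with 26.1% and 21.4% of all features called. The 2 higher were snR86 (1.68 ± 0.0487) and snR84 (0.33 ± 0.0541), and the overlap-free snR85 was lower by 1.77 ± 0.0771 on the log2 scale (adjusted p = 9.61e-08). Between csl4-ph and dis3-1, 13 members were lower in csl4-ph and 8 higher, with 29.3% and 26.9% of all features called. The overlap-free snR49 was lower in csl4-ph (−1.57 ± 0.179), snR85 higher (0.39 ± 0.0709), and for snR189 no difference was called (−0.01 ± 0.0734, adjusted p = 0.943).

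The rows that by coordinates run past the snoRNA 3′ ends moved differently from the snoRNA rows in the same ribo-depleted libraries. Whether these NUT rows lie on the strand of the snoRNA was not tested, so their rise need not be that of longer snoRNA transcripts. Of the 24 NUT rows that extend past a member's 3′ end, 19 were called higher in csl4-ph ribo-depleted RNA and 4 lower (median 1.90), 19 and 3 in dis3-1 (median 2.04), and 21 and 1 in rrp6 deletion (median 2.25). Of all features 35.4% and 41.1% were called in csl4-ph, 30.0% and 38.8% in dis3-1, and 30.5% and 35.6% in rrp6 deletion. The NUT row changed more upwards than its snoRNA row in 22, 22 and 21 of 24 pairs. For snR30 the NUT row read 119 and 124 CPM in control and 1968, 1931 and 1853 in csl4-ph (3.99 ± 0.0575). For the 25S guide snR11 the NUT row rose by 4.14 ± 0.0434 in csl4-ph, 4.29 ± 0.045 in dis3-1 and 4.08 ± 0.0451 in rrp6 deletion, from 20.9 and 19.2 CPM in control to at least 338 CPM in each library of those strains. In oligo d(T) RNA the NUT row changed more upwards than its snoRNA row in 4 of 21 tested pairs in csl4-ph, 9 in enp1-1 and 13 in srm1-ts. For some of these pairs the snoRNA row was at 0 in control.

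A locus here is the sum of the snoRNA row and all overlapping rows other than open reading frames. For snR81 and snR161 these include rows that are not NUTs. In csl4-ph ribo-depleted RNA the member's own row took a smaller share of that sum at 22 of the 24 loci with a NUT row. It took a larger share for snR32 (15.2% in control and 21.4% in csl4-ph) and the same for snR86 (87.5%). The snR30 row held 98.9% of the locus in control and 77.3% in csl4-ph, the snR37 row 98.3% and 32.3%, and the snR11 row 86.3% and 16.0%. By these locus sums, 14 loci rose and 12 fell in csl4-ph (median −0.02), 14 and 10 in dis3-1 (0.06) and 20 and 5 in rrp6 deletion (0.73). These counts run over all 29 members, and snR44, snR49, snR85, snR189 and snR191, which have no NUT row, were taken alone. The shares of all features given above for these strains come from the fit of single rows. How the authors' quantification divided reads that lie in both rows was not tested.

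**Figure D3:**
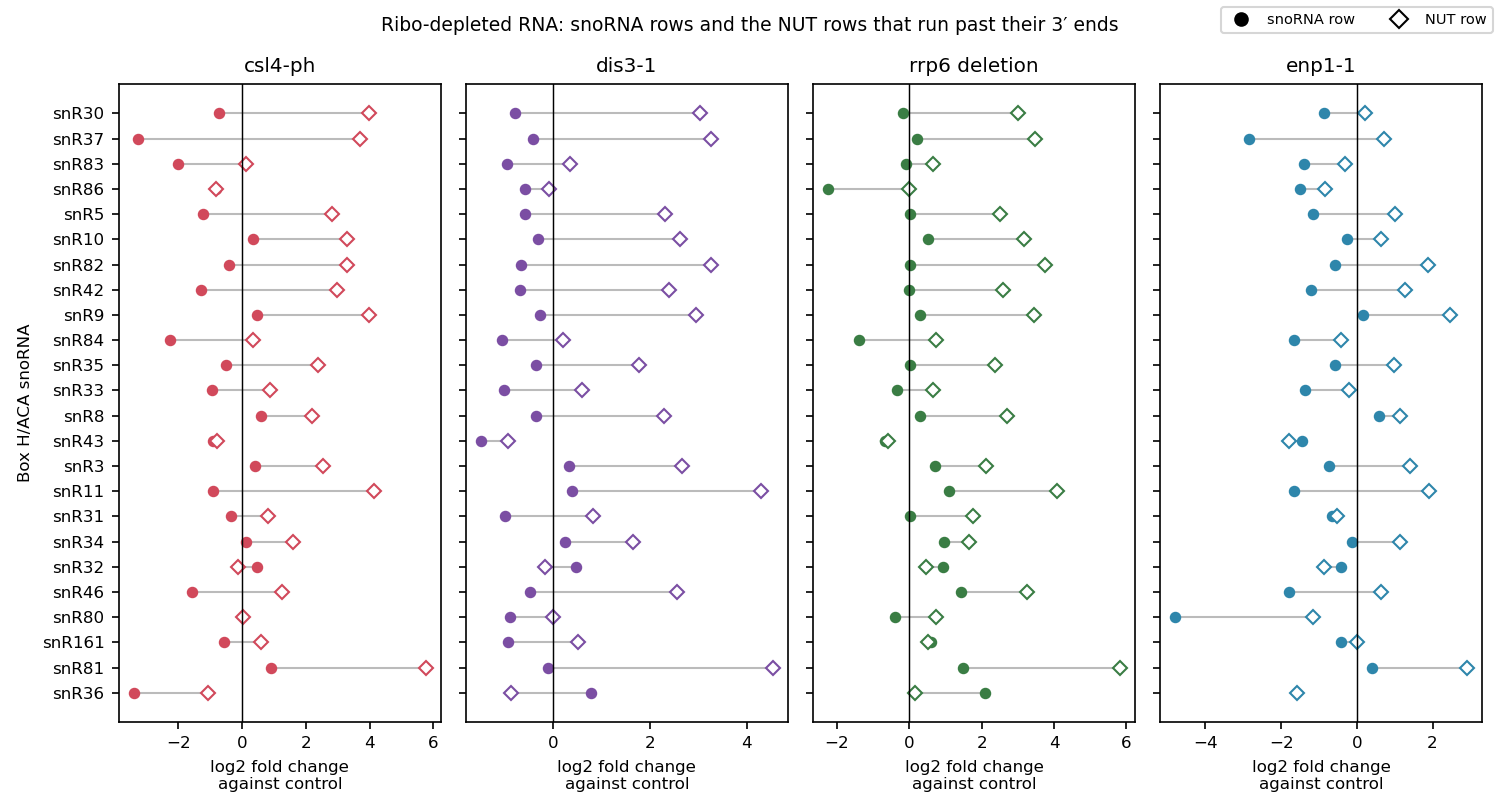
Log2 fold change against control in ribo-depleted RNA for the snoRNA row (filled circle) and for the NUT row that by coordinates runs past its 3′ end (open diamond; strand not given), for the 24 members that have one, in csl4-ph, dis3-1, rrp6 deletion and enp1-1. The NUT change was above the snoRNA change in 22, 22, 21 and 22 of the 24 pairs. These counts include snR80 in csl4-ph and snR36 in enp1-1, whose circles are left out because a group was at 0.

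In enp1-1 ribo-depleted RNA 22 members fell and 2 rose, where 37.0% and 34.8% of all features were called, with a median of −1.20 against 0. Scaled on open reading frames the counts were 21 and 4, where 2938 and 4655 of 10564 features were called, and the median −0.90 against 0.26. The 2 that rose were snR85, to 24.7 and 23.0 CPM (0.88 ± 0.0854), and snR8, to 204 and 184 CPM against 134 and 126 in control (0.58 ± 0.139). Among the falls were snR80, to 0.561 and 1.98 CPM (−4.81 ± 0.672), snR44, to 1.84 and 1.45 CPM (−3.30 ± 0.649), and snR36, which read 0 against 4.04 and 2.70 CPM. The overlap-free snR189 fell to 26.9 and 27.3 CPM (−1.93 ± 0.0851) and snR49 to 10.1 and 15.9 CPM (−1.82 ± 0.226). The 24 NUT rows went the other way in part, with 14 higher and 9 lower.

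In srm1-ts 16 members fell and 6 rose, where 37.0% and 39.4% of all features were called, and the median was −0.32 against 0.04. On the scale of open reading frames the counts were 12 and 9, where 3053 and 5079 of 10564 features were called. The median was then 0.01 against 0.37, and the signs of 2 called members, snR42 and snR43, turned. The largest falls were those of snR36, at 0 in both srm1-ts libraries and at least 34-fold lower, and snR80, at 1.89 and 1.37 CPM against 43.4 and 27.3 in control (−4.43 ± 0.657). The snR49 libraries read 5.39 and 6.08 CPM (−2.99 ± 0.249) and snR189 read 32.6 and 37.7 CPM (−1.55 ± 0.0836), while snR81 read 19.9 and 18.4 CPM against 7.94 and 9.04 in control (1.18 ± 0.252). The 18S guide snR161 (1.17 ± 0.211), snR8 (1.14 ± 0.138), snR82 (0.82 ± 0.0772), snR85 (0.84 ± 0.0855) and snR30 (0.39 ± 0.0956) were the others that rose.

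A test of the difference between the 2 selections was made in 1 fit over both tables. In csl4-ph the oligo d(T) change exceeded the ribo-depleted change in 27 of 29 members and was below it in none, where 27.7% and 27.1% of all 10790 features were called. For the 5 members too low to test in oligo d(T) RNA and the 6 at 0 in its control libraries, this value mostly restates the ribo-depleted change or a bound. Among the 15 members with counts in each oligo d(T) control library, 15 were above and 0 below. The overlap-free members differed by 4.49 ± 0.133 for snR189 (adjusted p = 4.89e-13), 3.34 ± 0.309 for snR49 and 1.07 ± 0.114 for snR85. In enp1-1, 17 members were called with the oligo d(T) change above the other and 2 below, with 22.8% and 30.2% of all features called. In srm1-ts 5 were above and 10 below, with 22.5% and 27.7% of all features called. Among the 15 members counted in control, 11 were above and 2 below in enp1-1, and 3 above and 10 below in srm1-ts. In srm1-ts the share of all 29 members called in either direction, 51.7%, was close to the 50.2% of all features.

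In the 3′ tags mainly minus-strand members could be read. The row names give no strand, and the median open reading frame on the plus strand held 2.44 counts per library against 31.8 on the minus strand, while in oligo d(T) RNA the medians were 1221 and 1196. The plus-strand members had a median of 0.327 counts and the 15 minus-strand members 96.4. The split by strand was chosen after these values were seen, and reads from a gene and from its opposite strand cannot be told apart in these rows.

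Of the 15 minus-strand members 13 could be tested, and in csl4-ph with the empty vector 10 were called higher and 1 lower. Over both strands, 11 of 16 were higher (snR81 the plus-strand one) and 2 lower (the plus-strand snR3 among them), where 32.2% and 15.4% of all 6369 features were called and the median of all features was 0.22. The snR189 libraries read 8.95, 3.07 and 6.64 CPM in control and 233, 389 and 343 in csl4-ph (5.66 ± 0.481, adjusted p = 1.01e-07). The snR35 libraries read 5.00, 3.62 and 5.46 CPM in control and 188, 301 and 279 in csl4-ph (5.72 ± 0.351), and those of snR85 read 16.8, 14.1 and 9.70 against 32.5, 51.5 and 52.2 (1.75 ± 0.289). The groups did not overlap in these 3 members. Control was at 0 for snR81 and snR80, so only bounds can be given. In csl4-ph snR81 read 25.9, 25.1 and 22.6 CPM (at least 14.6-fold higher) and snR80 read 8.30, 16.2 and 14.9 (at least 7.79-fold higher). As snR81 lies on the plus strand, its bound may not be that of the snoRNA itself. Which strand its reads came from was not tested. The 2 long members snR84 and snR86 were the highest in control and did not follow, although both were at 0 in oligo d(T) control. The snR84 libraries fell, from 1797, 1706 and 1619 to 1159, 963 and 921 CPM (−0.75 ± 0.17). The change of snR86 did not pass the test (−0.17 ± 0.218), although the NUT row over snR86 rose from 28.3 to 38.5 CPM in control to 1619 to 1744 in csl4-ph (5.72 ± 0.185).

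In enp1-1 with the empty vector 8 of the 13 tested minus-strand members were called higher and 0 lower. Over both strands 9 of 16 were higher and 0 lower, where 25.0% and 13.9% of all features were called. Over both strands DESeq2 also gave 9 and 0, and 12 of the 16 had an unadjusted p under 0.05 by edgeR's test. The share of all features at that unadjusted threshold is not given. The snR35 libraries read 38.01, 40.8 and 37.3 CPM (2.99 ± 0.363), those of snR9 235, 231 and 130 (2.17 ± 0.258) and those of snR189 16.7, 17.5 and 14.9 (1.38 ± 0.524, adjusted p = 0.0477).

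**Figure D4:**
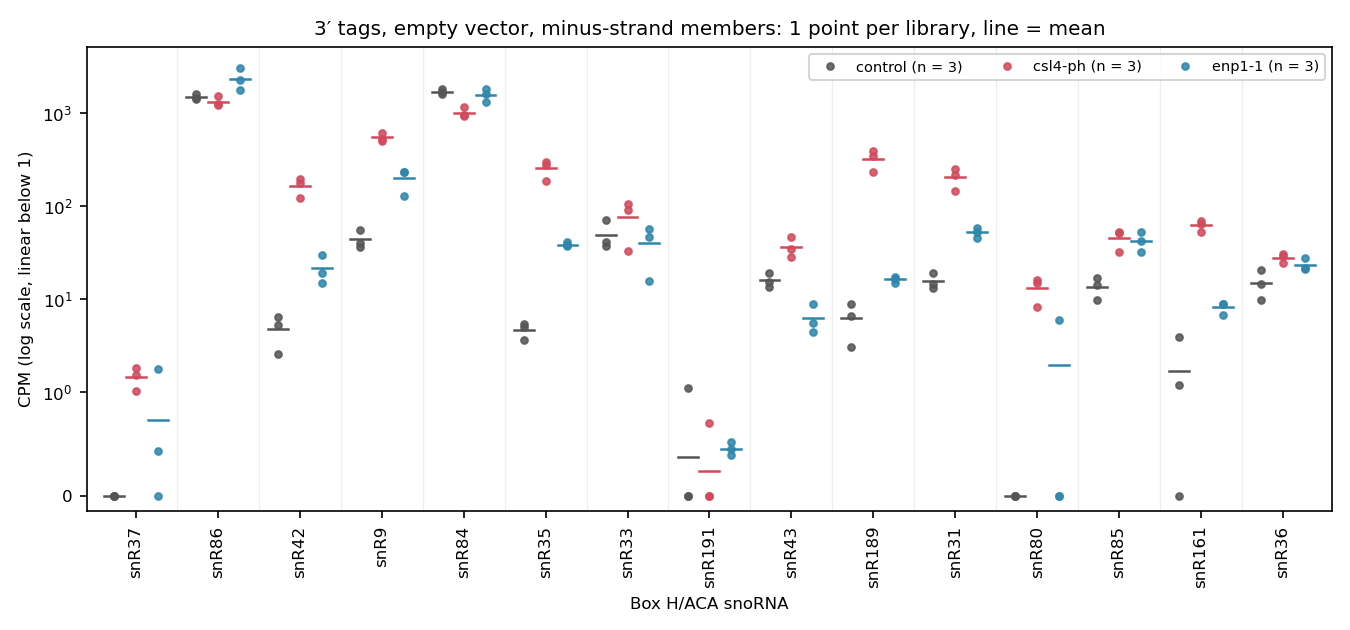
CPM of the 15 minus-strand members in 3′ tag libraries with the empty vector (log axis, linear below 1), 1 point per library with the group mean as a line. The csl4-ph points of snR189, snR35, snR42 and snR9 lie above all control points, and those of snR84 lie below.

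The Pab1GFP vector changed no member by edgeR's quasi-likelihood test in any of the 3 strains. In control 0.22% of all features were called higher and 0.173% lower, in csl4-ph 0.236% and 0.173%, and in enp1-1 1.71% and 4.95%. DESeq2 called 0 members in each strain, and the members with an unadjusted p under 0.05 numbered 0 of 16 in control, 7 in csl4-ph and 6 in enp1-1. In csl4-ph the snR189 libraries with this vector read 238, 68.0 and 122 CPM, against 233 to 389 with the empty vector, and without Pab1GFP replicate 1 of csl4-ph 4 members were called lower. The shares of all features at the unadjusted threshold and without that library are not given. These counts are therefore not read as an effect on the members.

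The 4 genes for the core proteins of the H/ACA particle (CBF5, NHP2, GAR1, NOP10) were all called lower in ribo-depleted csl4-ph, dis3-1 and srm1-ts, and 3 of 4 were in enp1-1, where 41.1%, 38.8%, 37.0% and 37.0% of all features were called lower. In csl4-ph they fell by 0.95 for CBF5, 1.31 for NHP2, 1.03 for GAR1 and 0.77 for NOP10 on the log2 scale. Scaled on open reading frames, 3 of 4 were lower in csl4-ph, dis3-1 and enp1-1 and 4 of 4 in srm1-ts, and none turned to a called rise. On that scale 2927, 2444, 2938 and 3053 of 10564 features were called lower in these strains. In rrp6 deletion none was called lower and 1, CBF5, was called higher (0.11), with 30.5% of all features called higher. On the scale of open reading frames 3 were called higher, where 4577 of 10564 features were.

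The assembly factor genes NAF1 and SHQ1 rose in enp1-1 (0.42 and 0.43), srm1-ts (0.38 and 0.44) and rrp6 deletion (0.77 and 0.70). Of all features 34.8%, 39.4% and 30.5% were called higher there. Both genes rose under each scaling. TGS1, whose product trimethylates the snoRNA cap, rose in all 5 strains of the ribo-depleted table, by 0.61 to 1.11, and by 0.92 to 1.43 when scaled on open reading frames. Before that scaling 30.0 to 39.4% of all features were called higher in these strains. In oligo d(T) RNA TGS1 was called lower in csl4-ph and higher in enp1-1 and srm1-ts. Other lists depended on the scaling. Of the termination genes NRD1, NAB3 and SEN1, 2 were called lower in csl4-ph (NAB3 −0.26 and SEN1 −0.25), and both were called higher on the scale of open reading frames (0.23 and 0.24), while NRD1, an essential gene, was listed at 0 in the control and csl4-ph ribo-depleted libraries. Of 10 exosome core genes, 7 were lower and 1 higher in dis3-1, with 38.8% and 30.0% of all features called. On the scale of open reading frames 1 was lower and 3 higher, where 2444 and 4730 of 10564 features were called. Of 10 genes for 3′ trimming and the TRAMP complex, 6 were lower and 3 higher in csl4-ph, with 41.1% and 35.4% of all features called. On the scale of open reading frames 4 were lower and 5 higher, where 2927 and 5189 of 10564 features were called.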

How the data were processed

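RNA of 41 yeast libraries was measured in 3 tables. The authors deposited estimated counts per feature, made with Salmon 0.12.0 after trimming with Trimmomatic 0.38 or 0.39 on the sacCer3 genome, per the submitters' processing notes, which also name bedtools, DESeq and DESeq2 1.26.0; the role of each is not given in the sources used here. Estimated counts were rounded to whole numbers. Each table was scaled by the trimmed mean of M-values, filtered by expression and fitted over all its groups with edgeR 4.0.16 (R 4.3.3) by the quasi-likelihood test, with Benjamini-Hochberg adjustment over all tested features and a threshold of 0.05. The fit was tested on simulated data. CPM values use the scaled library size. A difference between selections was tested as an interaction in 1 fit over both tables. DESeq2 1.42.0, other scalings, no filter, a replicate block, only the compared groups, sums of a snoRNA with overlapping rows other than open reading frames, and each library left out were the alternatives. Scaling checks of the gene lists and of the NUT rows were added later.

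The members and lists were chosen with earlier results of these data known. The rule for naming members took the 3 largest and 3 smallest changes of each strain comparison, members of special role, and members moving against most; library values are printed for many of these and not for every one. Bounds against groups at 0 use 3 counts per library and cover counting error only. Replicate numbers did not pair the samples within a kind of library: same-numbered deviations correlated between −0.095 and 0.04 in oligo d(T), −0.02 and 0.065 in ribo-depleted and −0.238 and 0.317 in tag libraries. Such correlations were not taken between oligo d(T) and ribo-depleted libraries of the same strain, which the interaction fit treated as separate samples. Python 3.11.15, pandas 2.3.3 and matplotlib 3.10.9 were used.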

Additional observations from a re-analysis of the deposited data

Results flagged for a closer look

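The change against control differed between oligo d(T)-selected and ribo-depleted RNA, by edgeR's quasi-likelihood interaction test, in 27 of the 29 members for csl4-ph, in 19 for enp1-1 and in 15 for srm1-ts. These are 93.1%, 65.5% and 51.7% of the members, where 54.8%, 53.0% and 50.2% of all features were called, so the srm1-ts share was close to that of all features. The 29 include 5 members too low to test in oligo d(T) RNA and 6 at 0 in its control libraries. Among the 15 with counts in each of those control libraries, 15 were above and 0 below in csl4-ph, 11 and 2 in enp1-1, and 3 and 10 in srm1-ts.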

How the results depend on the processing

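Of the counts of called members, 243 of the values under other settings and 208 with a library left out stayed within 1.5 times, and 23 and 12 moved. Of the 23, 15 came from summing each snoRNA with the overlapping rows other than open reading frames: in csl4-ph oligo d(T) RNA 1 was lower, in enp1-1 8 lower, in srm1-ts 5 higher. In ribo-depleted RNA the sums gave 14 higher and 12 lower in csl4-ph, 6 higher in enp1-1, 14 higher and 10 lower in dis3-1 and 20 higher in rrp6 deletion. In tags they gave 6 lower in csl4-ph, 3 lower in enp1-1 and 7 lower with Pab1GFP in enp1-1, and in the difference between selections 3 below in csl4-ph, 1 below in enp1-1 and 9 above in srm1-ts. Scaling on open reading frames left 1 lower in enp1-1 oligo d(T) RNA, and gave 4 higher in enp1-1 and 19 in rrp6 deletion ribo-depleted RNA. DESeq2 called 4 higher in srm1-ts oligo d(T) RNA. With only the compared groups, 1 tag member was lower in csl4-ph, 1 in enp1-1, and 1 difference between selections was below in enp1-1. The cause of these shifts was not tested.

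Within a kind of library, samples shared only a number as far as was checked. The replicate block left 1 tag member lower in csl4-ph and moved no other count by over 1.5 times. With libraries left out, members called lower ranged from 1 to 3 in csl4-ph tags, 0 to 1 in enp1-1 tags, 0 to 4 with Pab1GFP in csl4-ph, 0 to 1 with Pab1GFP in enp1-1, and 1 to 2 in the enp1-1 difference between selections.

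Some log2 changes turned sign. Locus sums gave 0.70 for snR8, 1.63 for snR82, 0.05 for snR10, −0.69 for snR32, −0.84 for snR83 and 2.04 for snR81 in enp1-1 oligo d(T) RNA, and 0.50 for snR81, −0.80 for snR37, −1.08 for snR32 and −2.06 for snR86 in srm1-ts. In ribo-depleted RNA they gave 1.04 for snR35 in csl4-ph, 0.09 for snR35 in enp1-1, and −0.81 for snR36, 0.41 for snR10, 0.65 for snR35 and 2.2 for snR81 in dis3-1. Scaling on open reading frames gave 0.16 for snR189 in csl4-ph, 0.02 for snR10 in enp1-1, 0.09 for snR10 and 0.32 for snR86 in srm1-ts, 0.12 for snR10, 0.07 for snR35, 0.32 for snR81 and 0.09 for snR189 in dis3-1, and 0.15 for snR30 in rrp6 deletion. DESeq2 and median-ratio scaling each gave 0.10 for snR86 in srm1-ts and 0.03 for snR81 in dis3-1, and the compared groups alone 0.08 for snR81. With a library left out, the changes ranged from −0.35 to 0.03 for snR10, −0.07 to 0.17 for snR86 and −0.13 to 0.35 for snR44 in srm1-ts, from −0.32 to 0.10 for snR81 in dis3-1 and from −0.05 to 0.11 for snR35 in rrp6 deletion.

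Groups of 2 or 3 libraries limit the precision of each value, and the split of reads between overlapping rows limits what a snoRNA row alone can show.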
